A study of Mus musculus with 11 samples.

Results

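The genes described here encode 10 classical acute phase plasma proteins of the liver: the alpha-1-acid glycoproteins Orm1, Orm2 and Orm3, haptoglobin (Hp), hemopexin (Hpx), the short pentraxins Apcs and Crp, the inter-alpha-trypsin inhibitor heavy chains Itih3 and Itih4, and the protease inhibitor Serpina3n. They were chosen by symbol, without the serum amyloid A genes, and all 10 were among the 13636 genes measured. RNA sequencing was done on 11 liver libraries of male C57BL/6J mice. Western diet feeding began when the mice were 8 weeks old and had lasted 1 month when the injections started. For 6 weeks the PBS group (4 libraries) then received PBS, the scramble group (3 libraries) a scramble oligomer and the mimic group (4 libraries) a miR-30c mimic. Both oligomers were given at doses that rose through 2.5, 5 and 7.5 mg/kg. The study's title describes these mice as overexpressing miR-30c, and no genetic change is given for any group. Whether every library is from its own mouse is not stated in the labels, so the p-values rest on the spread among libraries, part of which may be technical.

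The acute phase response is a change in the set of plasma proteins that the liver secretes during infection, injury or inflammation. Interleukin-6 acting through the transcription factor STAT3, together with interleukin-1, tumour necrosis factor, C/EBP factors and glucocorticoids, is known to raise transcription of these genes in hepatocytes. CRP is the pentraxin that is measured in the clinic as a human acute phase marker, whereas in mice serum amyloid P component, the product of Apcs, is the pentraxin known to respond strongly. The proteins carry small lipophilic molecules, bind free haemoglobin and haem, recognise damaged cells and microbes, or limit proteases.

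A microRNA pairs with its targets mainly through its seed, bases 2 to 8. The mature mouse miR-30c-5p is shown because it is the strand that the mimic is named for. It lies on chromosome 1 at chr1:23291714-23291736, plus strand, for the hairpin Mir30c-2 (RefSeq, GRCm38.p6), and the seed is in capitals. The letters of the injected mimic itself are not given in the sources used here.
mmu-miR-30c-5p: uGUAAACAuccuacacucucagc
The 7-base match to this seed, TGTTTAC, was found in the longest annotated 3′ untranslated region of 0 of the 10 genes, against 16% of the 11480 genes searched in the same way. These regions are short in 7 of the 10 genes, at 72 to 146 bases, and their median of 131 bases compares with 1165.5 bases over the genes searched, so the shares are not over like lengths.

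The 3 Orm genes stand side by side on chromosome 4, on the plus strand (GENCODE M21, GRCm38): Orm1 at chr4:63344560-63348163, Orm3 at chr4:63356162-63359511 and Orm2 at chr4:63362449-63365878. Their transcripts have 775 (Orm1), 775 (Orm2) and 773 bases (Orm3) and are close copies of one another. Aligned over their whole length, the Orm1 and Orm2 transcripts had 91% identical positions, Orm2 and Orm3 had 88% and Orm1 and Orm3 had 86.1%. Of all 48-base windows, the length of the reads, 21.2% of those of Orm1, 22.5% of those of Orm2 and 3.86% of those of Orm3 occur unchanged in at least 1 of the other two transcripts. A read from such a window cannot be assigned to 1 gene by its own letters. The libraries were read in pairs, and the other read of a pair may differ between the copies, which these shares do not count. The split of reads among the 3 genes is thus uncertain. How far depends also on the levels of the copies, because shared reads of an abundant copy can add much to a rare one. A coding stretch of 60 bases where the copies differ at 25 positions is shown, with those positions in capitals, because it contains letters by which reads can be told apart. It spans bases 176 to 235 of the transcripts of Orm1 and Orm2 and bases 173 to 232 of that of Orm3, exonic in all 3.
Orm1 coding stretch: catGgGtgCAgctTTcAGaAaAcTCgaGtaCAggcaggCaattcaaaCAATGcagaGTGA
Orm2 coding stretch: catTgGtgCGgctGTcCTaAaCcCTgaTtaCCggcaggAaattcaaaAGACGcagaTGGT
Orm3 coding stretch: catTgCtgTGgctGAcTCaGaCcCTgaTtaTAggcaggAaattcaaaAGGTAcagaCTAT
Within it Orm1 and Orm2 differ at 17 positions, Orm1 and Orm3 at 22, and Orm2 and Orm3 at 14.

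Promoters of 300 bases, which end 50 bases past the annotated start, were matched in RefSeq (GRCm38.p6) for 8 of the 10 genes, all but Orm1 and Hp. The motifs searched, 5 in all, were looked for on both strands: the STAT3 palindrome TTCNNNGAA, the IL-6 response element CTGGGAA, the C/EBP core TTGCNNAA, the glucocorticoid response element ACANNNTGT and the NF-kB consensus. The promoters of 5 genes are shown, with matched bases in capitals: Orm2 and Orm3 as close copies, Apcs and Crp as the pair of related genes with unequal changes, and Itih4 for its STAT3 palindrome near the start.
Orm2 promoter, chr4:63362199-63362498, plus strand: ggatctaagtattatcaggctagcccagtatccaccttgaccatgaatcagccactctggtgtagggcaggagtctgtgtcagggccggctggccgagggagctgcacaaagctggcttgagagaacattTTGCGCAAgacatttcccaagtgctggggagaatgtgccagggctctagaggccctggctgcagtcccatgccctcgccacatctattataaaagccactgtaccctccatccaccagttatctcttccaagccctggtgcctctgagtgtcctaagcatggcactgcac
Orm3 promoter, chr4:63355908-63356207, plus strand: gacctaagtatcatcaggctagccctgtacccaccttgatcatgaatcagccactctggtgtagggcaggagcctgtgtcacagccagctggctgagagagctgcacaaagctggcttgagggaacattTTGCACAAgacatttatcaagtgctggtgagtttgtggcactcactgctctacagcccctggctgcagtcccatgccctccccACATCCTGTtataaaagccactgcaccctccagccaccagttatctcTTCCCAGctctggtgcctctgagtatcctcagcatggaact
Apcs promoter, chr1:172895005-172895304, minus strand: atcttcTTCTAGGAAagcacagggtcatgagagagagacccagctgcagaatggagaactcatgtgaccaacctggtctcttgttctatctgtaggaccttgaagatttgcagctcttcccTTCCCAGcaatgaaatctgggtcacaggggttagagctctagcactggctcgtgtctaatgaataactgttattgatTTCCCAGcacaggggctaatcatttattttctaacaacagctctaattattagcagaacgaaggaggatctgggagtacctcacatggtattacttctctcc
Crp promoter, chr1:172697806-172698105, plus strand: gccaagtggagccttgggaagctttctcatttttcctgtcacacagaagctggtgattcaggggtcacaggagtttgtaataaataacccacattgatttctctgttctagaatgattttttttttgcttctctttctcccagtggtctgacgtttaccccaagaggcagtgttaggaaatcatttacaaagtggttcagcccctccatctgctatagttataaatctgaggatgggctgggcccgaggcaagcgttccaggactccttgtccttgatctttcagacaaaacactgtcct
Itih4 promoter, chr14:30886226-30886525, plus strand: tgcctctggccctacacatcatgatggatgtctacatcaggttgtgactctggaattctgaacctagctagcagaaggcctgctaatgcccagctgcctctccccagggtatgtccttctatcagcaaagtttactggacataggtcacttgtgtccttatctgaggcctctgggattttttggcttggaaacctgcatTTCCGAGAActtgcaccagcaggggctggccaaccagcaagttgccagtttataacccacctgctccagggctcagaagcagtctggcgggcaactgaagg

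The promoters of Orm2 and Orm3 had 86.2% identical positions when aligned, while the other 27 pairs of these promoters had 43.7% to 49.7%. The STAT3 palindrome was found in Apcs (first base at -244, counted from the start) and Itih4 (-51), and in 8.3% of all 32851 promoters of this length. Its neighbour in function, the IL-6 response element, was found at -129 and -52 in Apcs and at base 10 past the start of Orm3, and in 11.1% of all promoters. The C/EBP core was found in Orm2 (-120), Orm3 (-121) and Hpx (-200), against 10.8% of all promoters. Orm3 (-38) and Serpina3n (-76) held the glucocorticoid element, which 6.85% of promoters hold, and 0 of the 8 held the NF-kB consensus, which 8.46% hold. Neither Crp nor Itih3 held any of the 5 motifs. A match is only a match of letters and does not show that a factor binds there.

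**Figure D1:**
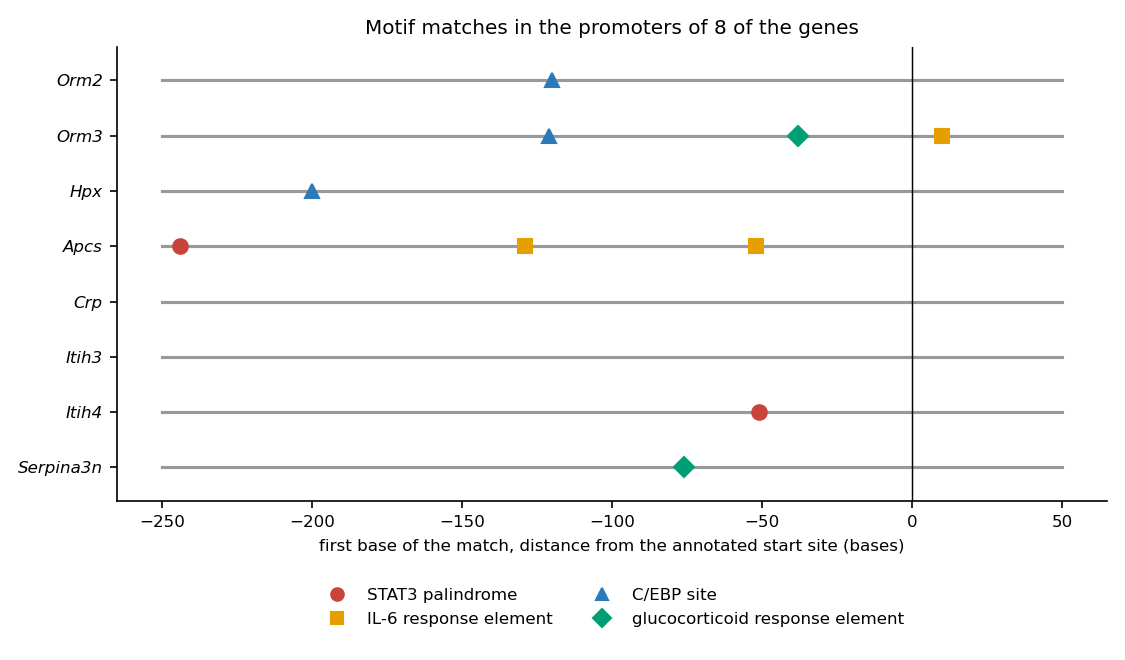
Matches to 4 motifs in the promoters of 8 genes, 1 line per gene. The horizontal axis is the distance of the first matched base from the annotated start site, in bases. Apcs holds 3 matches, and the lines of Crp and Itih3 hold none.

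The deposited values are read counts normalised to library depth (CPM) and rescaled between libraries, called scaled CPM below. The label of the deposit names a filter on low values, a CPM of 1 in 3 libraries. A gene said below not to be among the genes measured may therefore be a gene of low level. The gene reads of a library summed to between 39705157 and 101380174, and at least 189 reads lay behind each value of the 10 genes (Orm3 in PBS replicate 4). Major urinary protein genes, abundant liver transcripts of male mice, took 37.9% to 52.9% of all reads with PBS or scramble. Their share was 34.8% and 41.3% in replicates 2 and 3 of the mimic group but 12.5% and 11.6% in replicates 1 and 4. The latter 2 libraries stand apart, so results are given with and without them. In bulk tissue, fewer cells of a type and less RNA per cell cannot be told apart.

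In the mimic group 9 of the 10 genes were higher than in either control group, and Crp was the exception. The log2 changes of the 9 against scramble ran from 1.88 (Orm3 and Itih3) to 6.11 (Orm2), on the scale of log2(scaled CPM + 1). In the fit across all genes, with p-values adjusted over 13636 genes and called under 0.05, all 9 were called higher against scramble (adjusted p at most 0.00015) and against PBS (at most 8.3e-05). Of all genes, 32% were called in mimic against scramble, 17.3% higher and 14.7% lower, and 37.1% in mimic against PBS, 20% higher and 17.1% lower. The median log2 change of the 10 genes was 2.48 against scramble and 2.47 against PBS, beside a median of 0.00 over all genes in both comparisons. The 9 genes were also called higher by at least 2-fold, which held for 3.05% of all genes against scramble and 2.76% against PBS. For the same 9 genes every mimic library lay above every one of the 7 control libraries. Of all genes, 21.6% had all mimic libraries above all scramble libraries and 17.2% had them above all PBS libraries. Both comparisons use the same mimic libraries, so they are not independent of each other.

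Without mimic replicates 1 and 4, the same 9 genes were called higher in both comparisons, and the median log2 change of the 10 was 2.05 against scramble and 2.14 against PBS. Together the 10 genes took 0.212% to 0.344% of the reads with PBS or scramble. With the mimic they took 4.04%, 1.43%, 1.34% and 3.52% in replicates 1 to 4.

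**Figure D2:**
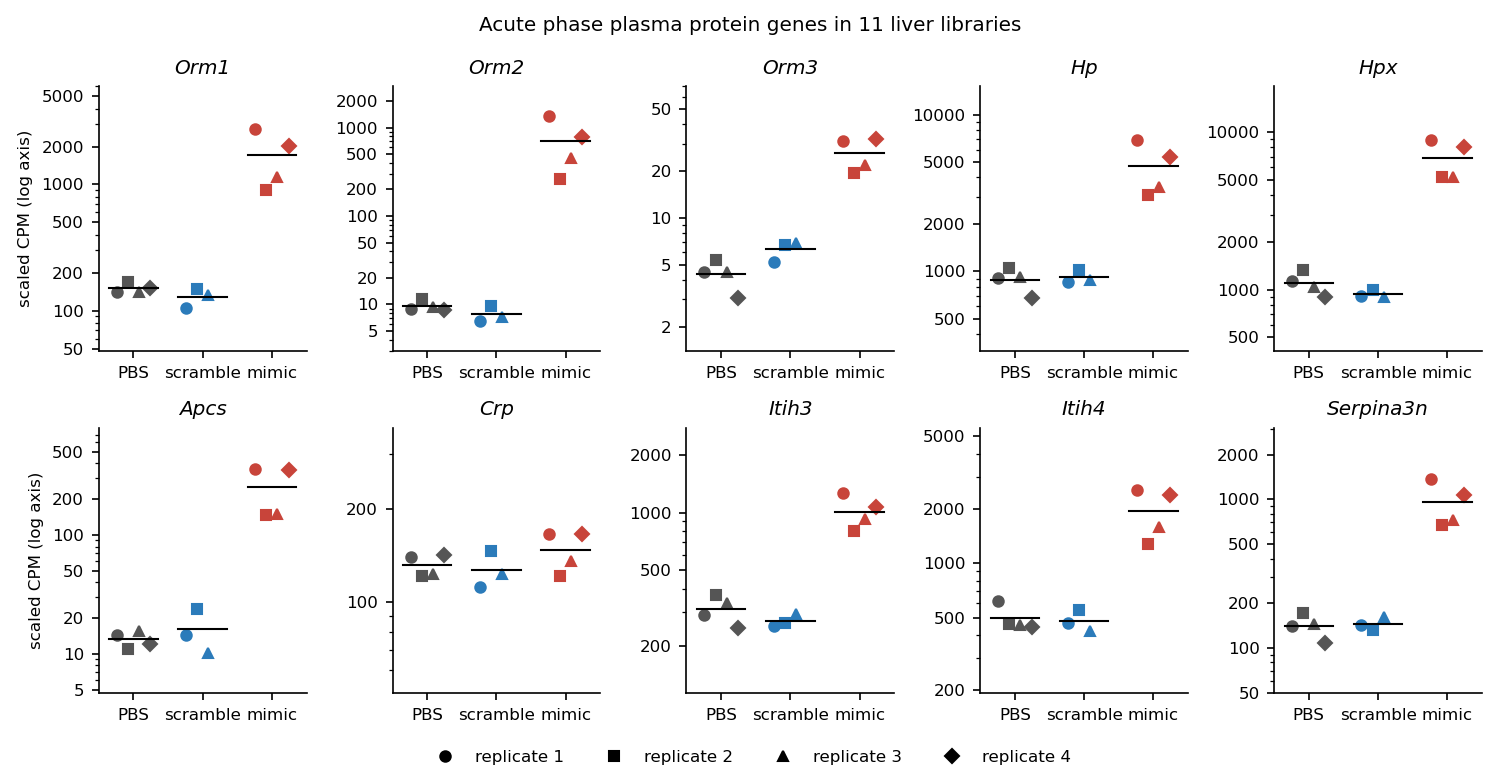
Scaled CPM (log axis, a separate range per gene) of the 10 genes in the PBS, scramble and mimic libraries, with 1 point per library, its shape giving the replicate, and a line at each group mean. For 9 genes the 4 mimic points lie above all control points, and for Crp the groups overlap.

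The alpha-1-acid glycoproteins, lipocalins that bind drugs and steroids in plasma, rose in all 3 copies, by very different amounts. Orm2 was at 8.97, 11.6, 9.32 and 8.60 scaled CPM in PBS replicates 1 to 4 and at 6.48, 9.51 and 7.18 in scramble replicates 1 to 3. In mimic replicates 1 to 4 it was at 1345, 261, 453 and 785. The lowest mimic library was thus 22.5 times the highest control library, and the highest mimic library was 5.16 times the lowest. The log2 change of Orm2 was 6.11 ± 0.41 (SE) against scramble (adjusted p = 5.7e-06) and 5.82 ± 0.38 against PBS (adjusted p = 3.5e-06), and without mimic replicates 1 and 4 it was 5.32 and 5.03.

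Orm1, the most abundant of the copies, was at 140.0, 168, 141 and 151 scaled CPM in the PBS libraries and at 104, 147 and 133 in the scramble libraries. Its mimic values were 2744, 908, 1143 and 2034 in replicates 1 to 4. On the log2 scale the change was 3.60 ± 0.31 (SE) relative to scramble and 3.37 ± 0.29 relative to PBS, and 2.99 and 2.76 without mimic replicates 1 and 4. Orm3, the least abundant of the 10 genes, was at 4.46, 5.36, 4.50 and 3.05 scaled CPM with PBS, at 5.22, 6.72 and 6.90 with scramble and at 31.4, 19.4, 21.7 and 32.1 with the mimic. No mimic library overlapped a control library for either gene. Orm1 shares 21.2% of its windows with Orm2 and 2.47% with Orm3, and it was far more abundant than Orm3. Reads of Orm1 could therefore make up part of the Orm2 and Orm3 values, of their changes and of their ratios to Orm1, which was not tested. Orm3 changed by 1.88 ± 0.19 (SE, log2) relative to scramble and 2.33 ± 0.18 relative to PBS, and the Orm3 value against scramble was the smallest of the 3 copies. The Orm1 promoter was not matched, so promoters and changes could not be compared over the 3 copies.

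Within each library the ratio of 2 genes does not depend on how the library was scaled. In this way 5 pairs of related genes were compared over the 3 comparisons, 15 exact permutation tests (two-sided) in all. The pairs were chosen with the values known, the smallest p these group sizes allow is 0.0286, and after adjustment over the 15 tests the smallest was 0.0612, so none passed 0.05. The ratio of Orm2 to Orm1 was 0.0641 ± 0.00501 (SD, n = 4) with PBS and 0.0602 ± 0.00563 (SD, n = 3) with scramble. In the mimic libraries it was 0.390 ± 0.0830 (SD, n = 4), between 0.287 and 0.490, with no overlap with the controls (exact permutation p = 0.0286 against each control group, adjusted 0.0612). Orm3 to Orm1 was lower in the mimic mean, at 0.0290 ± 0.00583 (SD, n = 4) with PBS, 0.0491 ± 0.00314 (SD, n = 3) with scramble and 0.0169 ± 0.00430 (SD, n = 4) with the mimic. Mimic libraries did not overlap with scramble (exact permutation p = 0.0286, adjusted 0.0612) but did with PBS (exact permutation p = 0.0571, adjusted 0.0857). That ratio also lay higher in every scramble library than in every PBS library, with an exact permutation p = 0.0286, adjusted 0.0612.

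**Figure D3:**
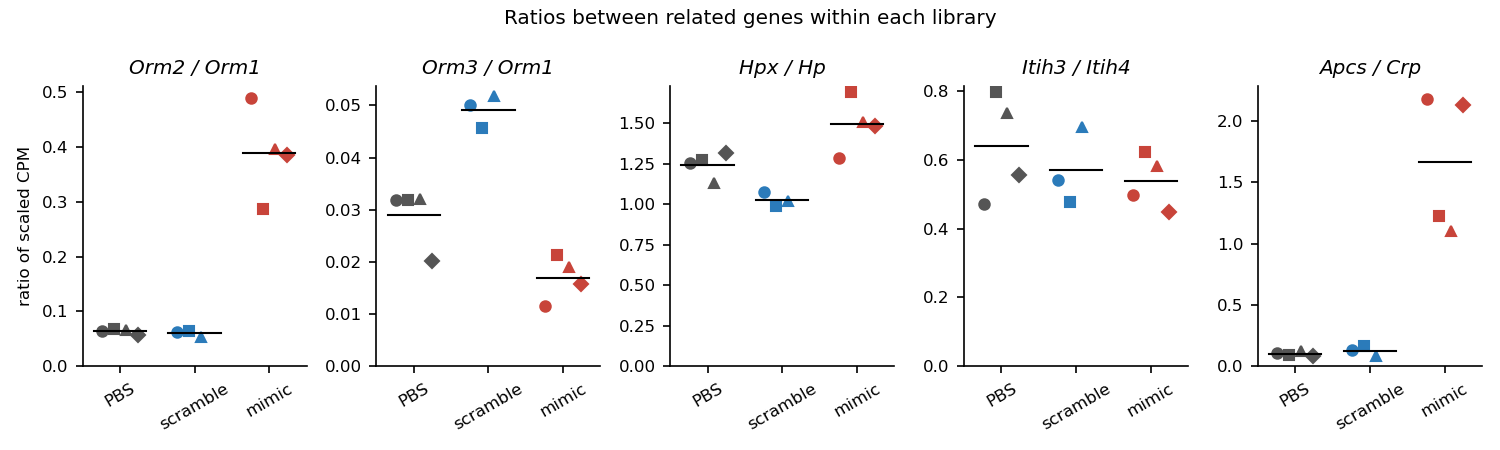
Ratio of scaled CPM between related genes in each library, from 0 on a linear axis, with 1 point per library, shaped by replicate as in the plot of levels, and a line at each group mean. Orm2 to Orm1 and Apcs to Crp are higher in all 4 mimic libraries than in all controls, and Itih3 to Itih4 overlaps between the groups.

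Haptoglobin, which captures free haemoglobin, and hemopexin, which captures free haem, were the most abundant of the 10 genes per kilobase of transcript in all 3 groups. Hp (chr8:109575128-109579172, minus strand) was at 906, 1046, 924 and 679.7 scaled CPM in the PBS libraries and at 856, 1017 and 879 in the scramble libraries. It reached 6944, 3065, 3459.8 and 5399 in mimic replicates 1 to 4, all above the controls, a log2 change of 2.29 ± 0.26 (SE) from scramble and 2.34 ± 0.24 from PBS. Hpx (chr7:105591613-105600137, minus strand) was at 1134, 1332, 1044 and 896 with PBS and at 920.2, 1004 and 899 with scramble. Its mimic values were 8913, 5194, 5214 and 8020.5, again with no overlap, and it changed by 2.82 ± 0.21 (SE, log2) relative to scramble and 2.60 ± 0.20 relative to PBS. The ratio of Hpx to Hp averaged 1.24 ± 0.0803 (SD, n = 4) with PBS, 1.03 ± 0.0446 (SD, n = 3) with scramble and 1.49 ± 0.168 (SD, n = 4) with the mimic. Mimic and scramble libraries did not overlap in this ratio (exact permutation p = 0.0286, adjusted 0.0612), while mimic and PBS libraries did (exact permutation p = 0.0571, adjusted 0.0857).

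The list of haemoglobin and haem clearance genes held 11 genes, Hp and Hpx among them, all measured. Of these, 7 were called higher and 1 lower in each mimic comparison, with a median log2 change of 0.35 against scramble. The lower one was Cd163, the macrophage receptor that takes up haptoglobin bound to haemoglobin, at 4.59 ± 1.18 scaled CPM (SD, n = 4) with PBS, 4.30 ± 2.94 (SD, n = 3) with scramble and 0.445 ± 0.202 (SD, n = 4) with the mimic. Its log2 change against scramble was -1.74 ± 0.29 (SE, adjusted p = 0.0012). Lrp1, the receptor that takes up hemopexin bound to haem, was higher by 0.36 ± 0.09 (adjusted p = 0.01, named after its values were seen), and Blvra, a biliverdin reductase, by 0.35 ± 0.08 (adjusted p = 0.0055). With mimic replicates 1 and 4 left out, 5 genes of the list were called higher and 1 lower in each comparison.

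The 2 short pentraxins, which lie on chromosome 1 and bind damaged cells and microbes, had very different values: Apcs rose and Crp did not pass the test. Apcs (chr1:172893961-172895041, minus strand) was at 14.5, 11.1, 15.5 and 12.02 scaled CPM in the PBS libraries, at 14.4, 24.04 and 10.2 in the scramble libraries and at 361, 148.5, 149.7 and 352 in the mimic libraries. Every mimic library exceeded every control, and mimic replicates 1 and 4 were the high ones. The log2 change of Apcs was 3.83 ± 0.35 (SE) against scramble (adjusted p = 3.6e-05) and 4.03 ± 0.32 against PBS (adjusted p = 1.2e-05). Without mimic replicates 1 and 4 it was 3.20 and 3.41.

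Crp (chr1:172698055-172833031, plus strand) stood at 140.0, 121, 123 and 142 scaled CPM with PBS, at 111, 146 and 123 with scramble and at 166, 121, 135 and 165 with the mimic. Mimic replicates 2 and 3 lay among the controls, and replicates 1 and 4 lay above them. The log2 change of Crp was 0.21 ± 0.13 (SE, 95% interval -0.08 to 0.49) against scramble (adjusted p = 0.24) and 0.15 ± 0.12 (95% interval -0.12 to 0.41) against PBS (adjusted p = 0.36). It was therefore not called, and the intervals leave room for a rise of up to 0.49 on the log2 scale. When libraries were scaled to their column totals instead, all genes shifted by a median log2 of 0.49 against scramble and 0.51 against PBS, and Crp, at 0.79 and 0.75, was called higher (adjusted p = 0.026 and 0.018). The ratio of Apcs to Crp, which no scaling changes, was 0.101 ± 0.0179 (SD, n = 4) with PBS and 0.126 ± 0.0410 (SD, n = 3) with scramble. With the mimic it was 1.66 ± 0.574 (SD, n = 4), and at 2.18, 1.23, 1.10 and 2.13 in replicates 1 to 4 it exceeded every control (exact permutation p = 0.0286 against each group, adjusted 0.0612). The other 3 pentraxins listed, Ptx3, Nptx1 and Nptx2, were not among the genes measured.

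**Figure D4:**
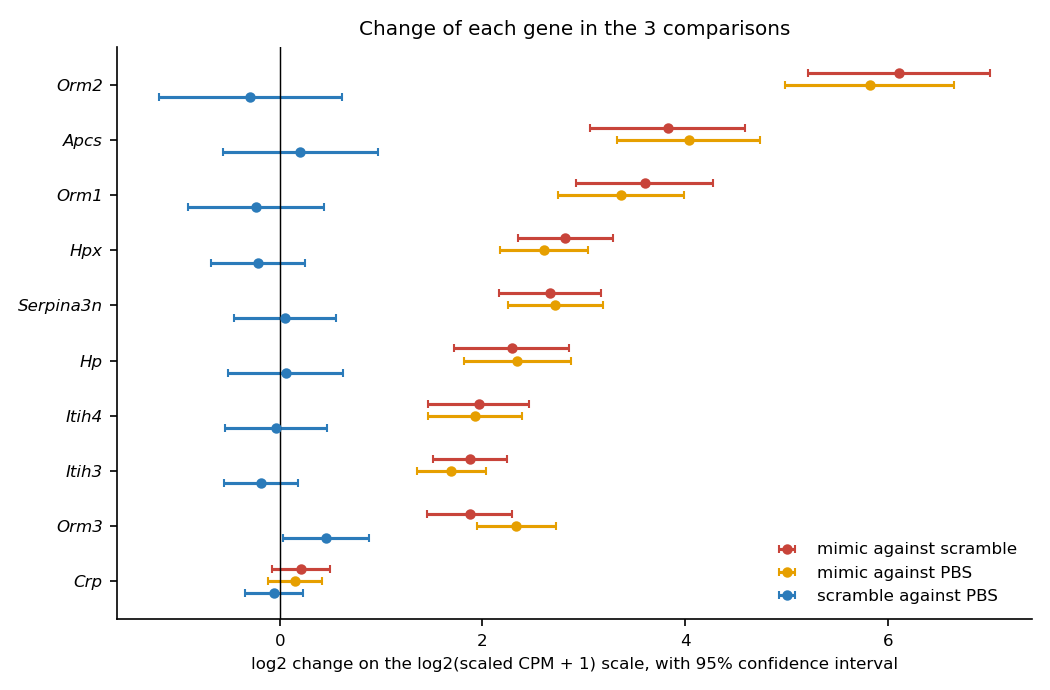
Log2 change of each gene on the log2(scaled CPM + 1) scale in the 3 comparisons, with points at the fitted change and bars for its 95% confidence interval, genes ordered by mimic against scramble. The mimic intervals of 9 genes lie above 1, those of Crp include 0, and of the scramble against PBS intervals all include 0 except that of Orm3.

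Itih3 and Itih4, heavy chains of the inter-alpha-trypsin inhibitor family, are neighbours on chromosome 14 on opposite strands (Itih4 at chr14:30886476-30902353, plus strand, and Itih3 at chr14:30908572-30923760, minus strand), and both rose. Itih3 was at 292, 369, 335 and 248 scaled CPM with PBS, at 254, 265 and 293 with scramble and at 1260.1, 797, 921 and 1071 with the mimic. This was a log2 change of 1.88 ± 0.17 (SE) from scramble and 1.69 ± 0.16 from PBS. Itih4 was at 618, 463, 455 and 447 with PBS, at 469.8, 555 and 421 with scramble and at 2531, 1275, 1580.1 and 2378 with the mimic. The PBS library at 618 lay apart from the other 3, and all mimic libraries of both genes lay above it and above the other controls. For Itih4 the log2 change was 1.96 ± 0.23 (SE) from scramble and 1.92 ± 0.21 from PBS. The ratio of Itih3 to Itih4 was 0.539 ± 0.0793 (SD, n = 4) with the mimic and 0.572 ± 0.113 (SD, n = 3) with scramble, which differed by less than the spread between libraries (exact permutation p = 0.686, adjusted 0.686).

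Of the other family members, Itih1 and Itih2 and the light chain precursor Ambp, which encodes bikunin, were also called higher in both comparisons. Ambp went from 532 ± 68.5 scaled CPM (SD, n = 3) with scramble to 1209.8 ± 292 (SD, n = 4) with the mimic, a log2 change of 1.16 ± 0.17 (SE). Itih1 and Itih2 changed less, by 0.69 ± 0.11 and 0.48 ± 0.12 (SE). Itih5, at a log2 change of 0.25, was not called (adjusted p = 0.43), which left 5 of the 6 measured genes of this list called higher, with a median log2 change of 0.93. Itih2 and Itih5 are named after their values were seen.

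Serpina3n, a secreted inhibitor of serine proteases (chr12:104406729-104414329, plus strand), was at 139.5, 171, 144 and 109 scaled CPM with PBS and at 142, 132 and 161 with scramble. In mimic replicates 1 to 4 it was at 1378, 673, 726 and 1069, all above the controls, a log2 change of 2.66 ± 0.23 (SE) from scramble and 2.72 ± 0.21 from PBS. Serpina3n was the 1 gene called among the 11 of the Serpina3 cluster measured, in either comparison, and the median log2 change of the cluster was 0.13 against scramble and -0.07 against PBS. Several of the others were near the floor, where the added 1 limits the log2 change. The group means of Serpina3a, Serpina3b, Serpina3c, Serpina3i and Serpina3j, named after their values were seen, lay between 0.394 and 1.48 scaled CPM. The copies Serpina3k and Serpina3m, of far higher level and named after their values were seen, stood at 5548 and 5862 scaled CPM with scramble and at 4843 and 5170.03 with the mimic, with log2 changes of -0.19 and -0.18 (adjusted p = 0.48 and 0.52). These copies resemble one another, so their reads could have been split or repeated by the counting. In GENCODE M21, Serpina3m (chr12:104338486-104394257) starts at the same base as Serpina3k (chr12:104338486-104346144) and contains it. Their values may therefore rest largely on the same reads, which was not tested. Scaled to column totals, 6 of the 11 were called higher against scramble and the changes of Serpina3k and Serpina3m were 0.39 and 0.41. The median over all genes was then 0.49.

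The order of the genes by level was not the same in the 3 groups. Per kilobase of the principal transcript, the mimic mean fell in the order Hpx, Hp, Orm1, Orm2, Itih4, Serpina3n, Itih3, Apcs, Crp and Orm3, from 4559.9 ± 1280 to 33.8 ± 8.43 scaled CPM per kilobase (SD, n = 4). With PBS it fell in the order Hpx, Hp, Orm1, Itih4, Itih3, Crp, Serpina3n, Apcs, Orm2 and Orm3, from 735 ± 122 to 5.62 ± 1.24 (SD, n = 4). With scramble the order was the same as with PBS except that Hp and Hpx changed places, and their ranges overlapped. In the mimic group the ranges of neighbouring genes overlapped down to Itih3 and Apcs, while Apcs, Crp and Orm3 did not overlap. Orm2 moved from the ninth place to the fourth, and its share of the reads of the 10 genes went from 0.297% ± 0.0248 (SD, n = 4) with PBS and 0.252% ± 0.0321 (SD, n = 3) with scramble to 3.58% ± 1.30 (SD, n = 4). The share of Crp went from 4.13% ± 0.838 (SD, n = 4) and 4.15% ± 0.280 (SD, n = 3) of these reads to 0.843% ± 0.162 (SD, n = 4).

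Among the mimic libraries, replicates 1 and 4 were above replicates 2 and 3 for all 10 genes, Crp included, and replicate 2 was the lowest for all 10. Replicate 1 was the highest for 9 genes, and replicate 4 for Orm3. Summed over the 10 genes, the 4 mimic libraries stood at 25673, 12460.3, 13805 and 21305 scaled CPM, and the controls at 2696 to 3698. These are the 2 libraries with the low share of reads from major urinary protein genes; the part of that share in the size of the changes was not tested.

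**Figure D5:**
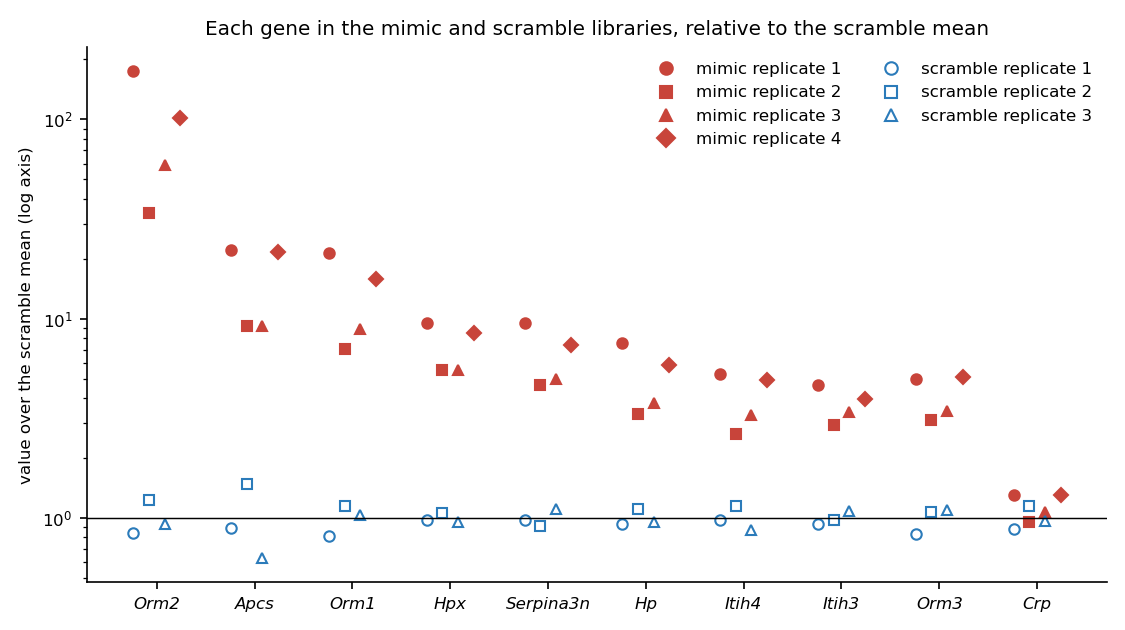
Value of each gene in the 4 mimic and 3 scramble libraries divided by the scramble mean of that gene (log axis), ordered by change. Orm2 spans 33.8 to 174 in the mimic libraries and Crp 0.954 to 1.31, and mimic replicates 1 and 4 lie above replicates 2 and 3 for every gene.

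Scramble against PBS gave no call among the 10 genes, and limma called 0 of all 13636 genes (0%), with 434 at an unadjusted p under 0.05. On the recovered reads edgeR called 0 genes and DESeq2 14. The largest difference among the 10 was that of Orm3, at a log2 of 0.46 ± 0.19 (SE, unadjusted p = 0.0355, adjusted p = 1). For the 10 genes the log2 differences ran from -0.29 (Orm2) to 0.46, with a median of -0.05.

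Other genes known to rise in the acute phase were higher with the mimic as well. Of 20 such genes, most of them for secreted proteins, all measured, 15 were called higher and 0 lower against scramble, with a median log2 change of 1.23, and 18 and 0 against PBS, with a median of 1.16. Lcn2, lipocalin 2, which binds bacterial siderophores, went from 2.01 ± 0.550 scaled CPM (SD, n = 3) with scramble to 1314 ± 761 (SD, n = 4). Mt1 and Mt2, metallothioneins that bind zinc, changed by 2.21 ± 0.20 and 2.54 ± 0.24 (SE) on the log2 scale, and Cfb, complement factor B, by 1.0 ± 0.11. Serpina1a, an alpha-1-antitrypsin copy named after its values were seen, had a log2 change of -0.22 (adjusted p = 0.38). A2m, named in the same way, was among those called higher. It averaged 0.531 scaled CPM with PBS and 0.666 with scramble, so its passing of the filter on low values depended on the mimic group. Leaving out mimic replicates 1 and 4, 14 of the 20 were called higher and 0 lower in each comparison.

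The genes listed as falling in the acute phase did not move together. Of 14, 3 were called higher and 1 lower against scramble and 2 and 1 against PBS, with medians of 0.08 and 0.15. Trf, which encodes the iron carrier transferrin, was higher against scramble, with a log2 change of 1.32 ± 0.25 (SE), as was Ahsg (fetuin A) at 0.47 ± 0.15 and Hc (complement C5) at 0.30 ± 0.10. Hc was not called against PBS, at 0.18 (adjusted p = 0.15). The 1 gene lower against PBS was Rbp4, named after its values were seen, at -0.51 (adjusted p = 0.042). Serpina6, the corticosteroid carrier, was lower at -0.68 ± 0.22 against scramble, and at -0.14 it was not called against PBS (adjusted p = 0.63). Alb, named after its values were seen, had a log2 change of -0.52 (adjusted p = 0.12). Scaled to column totals, 7 were called higher and 0 lower against scramble and 8 and 0 against PBS, with Alb at 0.07 and Serpina6 at -0.10 against scramble. All genes then shifted by a median of 0.49 against scramble and 0.51 against PBS.

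The pathways that act on acute phase promoters showed calls in both directions. Of 18 genes of IL-6 family receptors and STAT3 signalling, 16 were measured, of which 3 were called higher and 4 lower against scramble, with a median log2 change of -0.15. Il6 and Socs1 were not among the genes measured. Lifr, the receptor of leukaemia inhibitory factor, changed by -1.05 ± 0.21 (SE), Il6st, the shared signalling receptor gp130, by -0.43 ± 0.09, Ptpn11, a phosphatase, by -0.34 ± 0.09, and Osmr, the oncostatin M receptor, by 0.41 ± 0.12. Stat3, at 0.30, and Socs3, an inhibitor induced by STAT3, at -0.11, both named after their values were seen, were not called (adjusted p = 0.098 and 0.72). Scaled to column totals, Lifr was still lower, at -0.47, while the changes of Il6st and Ptpn11 turned positive, at 0.14 and 0.23, and 5 genes were called higher and 0 lower. The list median was then 0.41, beside 0.49 over all genes. Without mimic replicates 1 and 4, 0 were called higher and 3 lower.

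Of 21 measured genes of IL-1, TNF and NF-kB signalling, 8 were called higher and 1 lower against scramble, with a median log2 change of 0.24. The higher ones included Irak3, an inhibitory kinase of the receptor complex, at 1.15 ± 0.09 (SE), Tnip1, which restrains NF-kB, at 0.75 ± 0.14, and Irak4, at 0.49 ± 0.07. Irak3 was at 0.814 scaled CPM or less in every control library, so it could pass the filter on low values only through the mimic group. Il1rap, the co-receptor of interleukin-1, was lower at -0.44 ± 0.07, and turned to 0.14 when libraries were scaled to column totals. The median over all genes was then 0.49. Without mimic replicates 1 and 4 the counts were 4 and 1. Il1b, Il1r2 and Tnf were not among the genes measured.

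Of 16 transcription factors known to act on acute phase genes, 0 were called higher and 4 lower against scramble, with a median log2 change of -0.14. The 4 were Cebpg at -0.52 ± 0.08 (SE), Nr3c1, the glucocorticoid receptor, at -0.53 ± 0.09, Foxa1 at -0.34 ± 0.11 and Cebpb at -0.31 ± 0.10. Scaled to column totals, these 4 changes against scramble were between 0.04 and 0.27, and 3 genes of the list were called higher and 0 lower. The sign of the changes thus depends on the scaling. The list median was then 0.40, beside 0.49 over all genes, so it lay below that of all genes under both scalings. Cebpb was not called against PBS, at 0.03 (adjusted p = 0.79). Without mimic replicates 1 and 4, 2 factors were called lower.

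Markers of other cell types also differed between the mimic and control libraries, and their part in the changes of the 10 genes was not tested. Of 12 hepatocyte markers, 1 (Apoa2, at -0.56 ± 0.12, SE) was called lower and 0 higher against scramble, and 3 lower and 1 higher against PBS. Scaled to column totals, 2 were called higher and 0 lower in each comparison, with Apoa2 at 0.03 against scramble, so the sign of the changes depends on the scaling. Against scramble the median of the 12 was -0.23, beside 0.00 over all genes. With column totals it was 0.36, beside 0.49, and thus below that of all genes under both scalings. Their summed level was 34207 to 40832 scaled CPM with PBS, 35708 to 39535 with scramble and 27673 to 32280 with the mimic, so transcripts that define hepatocytes were abundant in all groups. Of 14 neutrophil markers 7 were measured, all 7 called higher, with sums of 3.61 to 8.84 with PBS, 2.78 to 3.90 with scramble and 727 to 2304 with the mimic, most of it Lcn2, which hepatocytes also express. Ly6g, Camp, Elane and Mpo, which define neutrophils, were not among the genes measured, and S100a8 and S100a9 reached 6.45 ± 2.40 and 8.77 ± 3.15 (SD, n = 4) with the mimic. S100a8, S100a9, Mmp9, Ltf and Ngp (the last ones named after their values were seen) were at 0.638 scaled CPM or less in every control library. They could pass the filter on low values only through the mimic group, so their higher calls were largely fixed by that selection. The same holds for Gpnmb, Trem2 and Ly6c2 of the macrophage list and Acta2 of the stellate list, which was called higher. Ccr2 of the macrophage list, also called higher, averaged 0.823 scaled CPM with PBS and 0.674 with scramble. Its passing of the filter thus depended on the mimic group as well. Acta2 and Ccr2 are named after their values were seen. Of 14 Kupffer cell and macrophage markers 7 were called higher and 3 lower, with sums of 92.0 to 204 with PBS, 92.7 to 165 with scramble and 159.5, 296, 233 and 207 in mimic replicates 1 to 4. The neutrophil sums in the same replicates were 2304, 750, 727 and 1576, and the stellate sums 209, 209, 174 and 345. The order of the mimic replicates thus differed between these lists. For 9 stellate cell markers the counts were 6 and 0, with sums of 50.8 to 81.8, 70.7 to 77.3 and 174 to 345. In the macrophage list the lower calls against scramble fell on Timd4 (-1.69), Vsig4 (-1.69) and Clec4f (-2.42), picked out here with their values known. With column totals their log2 changes were -1.51, -1.25 and -1.93. The macrophage sums therefore mix genes that rose with genes that fell. Cd163 of the haem clearance list, at -1.74, fell by a similar amount, and a link between these falls was not tested. Of 7 endothelial markers 1 was called higher and 0 lower against scramble, but 0 higher and 3 lower against PBS. Without mimic replicates 1 and 4, 0 were called in either comparison. Scaled to column totals, 2 were called higher against scramble and 3 against PBS, and 0 lower in both. None of 8 lymphocyte markers was among the genes measured. Integrity numbers of the RNA, between 8.4 and 9.2, are given for 7 libraries and missing for 4.

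The genes whose pattern over the 11 libraries was nearest to that of Orm2, Apcs and Orm1 were found by the root mean square difference of log2(scaled CPM + 1), centred on the PBS mean, over 12860 genes. Nearest to Orm2 were Gpnmb (0.86), Saa1 (0.89), Saa3 (1.09) and Col1a1 (1.42). Apcs was followed by Col3a1 (0.54), Col1a1 (0.59), Mmp12 (0.69) and Col1a2 (0.76), and Orm1 by Mmp12 (0.32), Ly6e (0.45), Col1a2 (0.47) and Lgals3 (0.49). The nearest of the 10 genes themselves were Apcs for Orm2 (1.16), Orm1 for Apcs (0.55) and Serpina3n for Orm1 (0.48). The nearest genes thus included collagens (Col1a1, Col1a2, Col3a1), the serum amyloid A genes Saa1 and Saa3, and genes known from macrophages (Gpnmb, Mmp12, Lgals3). This distance depends mainly on the size of the change. Gpnmb and Mmp12 averaged 0.114 and 0.260 scaled CPM with scramble, where the added 1 limits the log2 change, so their places depend partly on it. With PBS these 2 genes averaged 0.271 and 0.340, so they could pass the filter on low values only through the mimic group. The 4 serum amyloid A genes stood at 16565, 6090, 7439 and 12420 scaled CPM, summed, in mimic replicates 1 to 4, and at 137 to 247 in the controls. Of these, Saa4, named after its values were seen, averaged 103 with PBS, 114 with scramble and 155 with the mimic. It was not called against scramble (adjusted p = 0.45) or PBS (adjusted p = 0.21).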

How the data were processed

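Per the labels' protocols, RNA from frozen liver was made into stranded mRNA libraries and read as paired 48-base reads. The tools named are edgeR 3.8.6 in R 3.1.2, Bowtie, bedtools 2.17.0, SAMtools 0.1.19, FastQC 0.11.3 and bcl2fastq 1.8.4, on build mm10, per the submitters' processing notes, which give no order or settings. The authors deposited 1 signal value per gene and library: CPM scaled by TMM factors, equal to CPM recomputed with edgeR to within 5.1e-13 percent. Whole reads (100% of values, tolerance 1e-06) were recovered from the step of each library. The design had assumed plain CPM, and the values were treated in the same way.

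The test was limma 3.58.1, run in R 4.3.3 on log2(value + 1), in 1 fit of 3 group means over 11 libraries with a mean-variance trend, Benjamini-Hochberg adjusted over 13636 genes, at 0.05. The fit was first tested on simulated data. The alternatives were a pseudocount of 0.25, filters on low values, column totals or median ratios, a replicate block, only 2 groups, no trend, left-out libraries, and edgeR 4.0.16 or DESeq2 1.42.0 on recovered reads. Gene positions came from GENCODE M21 (GRCm38, the assembly of mm10), and promoters and the miRNA from RefSeq.

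The 10 genes and the lists of related genes were chosen with earlier results of these data known, and the lists were written from memory. The genes named are the 10, up to 4 measured genes per list with the smallest p in mimic against scramble, and the 4 nearest genes in pattern to the 3 of the 10 with the largest change, predicted genes left out. None of the 10 had values identical to another row, as 54 rows did.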

Additional observations from a re-analysis of the deposited data

Results flagged for a closer look

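Among the 20 sets of values of the 10 genes in a group of 4 libraries (PBS or mimic), 1 held a library far from the others. Itih4 in PBS replicate 1 stood at 618 scaled CPM, while the other 3 PBS libraries lay between 447 and 463. The gap to its nearest neighbour was 0.907 of the whole range, above Dixon's 95% critical value for 4 samples. Chance alone marks about 1 in 20 such sets.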

How the results depend on the processing

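In each mimic comparison the 9 called genes of the 10 kept direction and call under all 22 alternatives. Crp, uncalled, was called higher with column totals (0.79 against scramble, adjusted p = 0.026, and 0.75 against PBS, adjusted p = 0.018). It turned to -0.036 against PBS without mimic replicates 1 and 4 (adjusted p = 0.86, over a range of 0.018 to 0.86). In scramble against PBS, where none of the 10 was called, leaving out 1 library turned the sign of 5 genes. The log2 values then ran from -0.14 to 0.0735 for Itih4, -0.065 to 0.14 for Hp, -0.063 to 0.15 for Serpina3n, -0.165 to 0.029 for Crp and -0.10 to 0.47 for Apcs.

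Over all genes, 4363 calls in mimic against scramble became 2816 with a mean of at least 5 required (fewer genes tested), 2548 without mimic replicates 1 and 4 (fewer samples), and 2824 to 4904 with 1 library left out, the lowest without scramble replicate 1. The 5059 calls against PBS became 3273 and 2894 under the first 2 of these. With column totals, 5498 genes were higher and 110 lower against scramble and 6882 and 120 against PBS, beside 2363 and 2000, and 2733 and 2326. Scramble against PBS had 0 calls, 5 when only these groups were fitted, 14 with DESeq2 and 0 to 1 with 1 library left out (1 without PBS replicate 1); the cause was not tested.

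With the replicate number as a block, 3808, 4584 and 0 genes and 9, 9 and 0 of the 10 were called. Libraries with the same number had correlations of -0.28 to 0.26, above 0.1 in 3 of 10 pairs, and 3 of 11 libraries correlated best with their own number, so the numbers do not pair the libraries.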
